A study of Mus musculus with 6 samples.

Results

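The trimmed forward probes are 20 array probes that all hold the same intact composite binding site but carry less and less DNA around it. They were chosen by sequence alone: custom probes of under 60 bases that hold the whole 16-mer in forward orientation and do not begin with the first 10 bases of the scaffold. They are 20 of 6889 custom sequences and of 10812 sequences on the array, and 75 custom sequences in all were shorter than 60 bases. The probes lack 1 to 20 bases, 1 probe for each number, and each was compared with the intact middle forward probe of 60 bases.

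The study used protein binding microarrays: the probes are extended to double strands on the glass, a protein carrying a glutathione S-transferase (GST) tag is added, and the bound tag is read as Cy5 fluorescence. Mouse DNA-binding domains were made by in vitro translation, and the labels give bZIP as the domain of every sample, although GABPα is an ETS factor. GABPα alone (GABPa-GST, 570 ng of plasmid), GABPα with CREB1 (the same amount, and 66 ng of plasmid for untagged CREB1) and CREB1 alone (CREB1-GST, 570 ng) were measured on 2 arrays each, so the mixed reaction shows GABPα and not CREB1. Replicates 1 of the 2 groups with tagged GABPα shared 1 slide and replicates 2 shared another, while each CREB1 array lay on a slide of its own. Nothing in the labels says that replicate arrays had their own protein preparation, so the p-values may measure technical spread only.

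GABPα is the DNA-binding subunit of the GA-binding protein and recognises a purine-rich core, GGAA, through its ETS domain. CREB1 binds as a dimer through a basic leucine zipper to the cAMP response element (CRE), TGACGTCA. In the composite site the ETS motif comes first and its last bases run into the CRE, so the motifs lie directly next to each other and share a base.

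The sequences below show how the series was built. The capitals mark the 16-mer, the lower-case bases are the flanks, and all are written 5′ to 3′ with the end held on the glass on the right. The ETS motif therefore points to the free end, which is called the outer end here, and the CRE points to the glass.
Intact middle forward probe: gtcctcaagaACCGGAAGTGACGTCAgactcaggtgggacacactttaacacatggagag
Lacking 1 base: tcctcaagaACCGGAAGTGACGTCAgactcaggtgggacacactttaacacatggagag
Lacking 6 bases: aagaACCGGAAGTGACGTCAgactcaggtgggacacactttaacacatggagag
Lacking 8 bases: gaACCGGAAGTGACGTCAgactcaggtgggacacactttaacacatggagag
Lacking 9 bases: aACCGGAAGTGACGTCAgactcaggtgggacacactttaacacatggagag
Lacking 10 bases: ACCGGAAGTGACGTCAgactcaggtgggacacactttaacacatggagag
Lacking 12 bases: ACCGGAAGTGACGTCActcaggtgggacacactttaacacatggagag
Lacking 15 bases: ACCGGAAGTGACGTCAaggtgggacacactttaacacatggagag
Lacking 18 bases: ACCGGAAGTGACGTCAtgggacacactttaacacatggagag
Lacking 20 bases: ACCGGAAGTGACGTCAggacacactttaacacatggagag
Full-length probe with the site at the outer end: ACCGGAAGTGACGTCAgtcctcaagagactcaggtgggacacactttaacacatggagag
Full-length probe with 12 bases before the site: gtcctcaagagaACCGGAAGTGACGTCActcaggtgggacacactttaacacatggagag

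The series thus falls into 2 stretches. In the probes lacking 1 to 10 bases the outer flank shrank from 9 bases to 0, while the 34 bases after the site stayed the same. In the probes lacking 11 to 20 bases the site already formed the outer end, and the inner flank shrank from 33 bases to 24. The base before the site was a in all 9 probes that still had one, and the base after it was g up to the probe lacking 10 bases and then changed from probe to probe. Searched on both strands, the flanks of the members held neither the ETS core GGAA nor the CRE arm TGACG (0 of 20 members each). Anywhere in the probe, GGAA stood in 56.5% of custom probes and TGACG in 69.4%. A further probe of 59 bases lacks the base just before the site and was left out because it begins with the scaffold's first bases. Its signal levels were -0.20 and -0.08 with GABPα alone, beside -0.19 and -0.14 for the member lacking 1 base and -0.22 and -0.14 for the intact probe.

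Signal levels are log2 of the scanner's processed intensity, averaged over about 24 spots per probe (48 for the intact probe), minus each array's 75th percentile over 1143 sequences bright on all 6 arrays. A level of 0 thus lies at that percentile of bright spots. A trimming effect is a probe's level minus that of the intact probe on the same array, so that differences between arrays in overall brightness cancel, and all effects share the intact probe's own error. The tests were limma fits over 6959 such differences, which cover every custom sequence and the pairings described below, with p-values adjusted by Benjamini-Hochberg over all of them and called below 0.05. By the scanner's own test, all 20 members were well above background on the CREB1 arrays and on the arrays of GABPα with CREB1. With GABPα alone, 15 were above background on array 1 and 12 on array 2.

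GABPα alone kept its signal down to 2 outer bases, lost part of it at 1 base and lost most of it when the site itself became the end of the DNA. The intact probe had levels of -0.22 and -0.14 on the 2 arrays. Among the probes lacking 1 to 8 bases the levels lay between -0.19 and 0.16 on array 1 and between -0.14 and 0.23 on array 2, so none lay below the intact probe. The probe lacking 6 bases was the brightest of the series, with levels of 0.16 and 0.23.

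The probe lacking 9 bases, with a single a before the site, had levels of -0.57 and -0.79. The probe lacking 10 bases had levels of -2.71 and -3.21. Both arrays therefore put the step at the removal of the last outer bases, and the levels on either side of it do not overlap. The step from 8 to 9 missing bases was -0.73 (SE 0.128, limma adjusted p = 1.17e-05), and that from 9 to 10 was -2.28 (SE 0.128, limma adjusted p = 1.87e-14). The probe lacking 10 bases was not well above background on either array, so the size of the second step is not measured. In the authors' deposited table the probe lacking 9 bases read 86.2% and 70.4% of the intact probe, and that lacking 10 read 39.4% and 26.1%. Only 1 step of the series was called there with GABPα alone (limma).

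Relative to the intact probe, 15 of the 20 members changed with GABPα alone: 3 rose and 12 fell (limma). Over all 6959 differences 4.41% were called higher and 87.9% lower, with a median of -4.49. Most custom probes carry an altered site. The 3 that rose lacked 3, 5 and 6 bases, by 0.28, 0.31 and 0.37. These small rises are not firm: leaving out either GABPα array ended all 3 calls. The 12 that fell were those lacking 9 to 20 bases.

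The probe lacking 9 bases differed from the intact probe by -0.50 ± 0.20 (SD, n = 2; limma adjusted p = 0.00105), a call lost without replicate 2 of GABPα alone (adjusted p = 0.139). The probe lacking 10 bases differed by -2.78 ± 0.41 (SD, n = 2; limma adjusted p = 1.28e-15). The lowest mean level was at the probe lacking 12 bases, with levels of -3.05 and -3.87, a difference of -3.28 ± 0.63 (SD, n = 2; limma adjusted p = 4.77e-16). The SEs of the fit, 0.122 to 0.178, pool the spread of all 3 groups and are smaller than the spread of the GABPα arrays at these dim probes would give.

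The 5 probes lacking 10 to 14 bases were not well above background on either array of GABPα alone, so their processed signal gives only a bound. Set against the lowest signal among custom sequences above background on each array, or the probe's own where that was higher, the intact probe was at least 5.37-fold brighter than the probe lacking 10 bases and at least 5.44-fold to 5.48-fold brighter than those lacking 11 to 14. These bounds belong to the processed signal, from which a fitted background had been subtracted. With the normexp background correction the trimming effect at 10 and 12 missing bases was -1.67 and -1.88, and in the authors' deposited table it was -1.64 and -1.91, past the limma test in each case. In the authors' deposited table the probe lacking 12 bases read 1509.75 and 1688.75 against 4281.5 and 8383.5 for the intact probe, that is 35.3% and 20.1% of it. That table's medians over all its entries were 325.25 and 338.5 on these arrays, below every member. The losses at 10 to 20 missing bases were called in all 3 treatments, while their size was not the same. The smaller loss at 9 missing bases was -0.32 with normexp (limma adjusted p = 0.0367) and -0.36 in the authors' deposited table, where it did not pass (limma adjusted p = 0.212).

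Between 14 and 18 missing bases the processed GABPα level rose with each base lost from the inner flank, on both arrays. The probe lacking 15 bases had levels of -2.34 and -3.47, the probe lacking 18 bases -1.35 and -2.11, and the probe lacking 20 bases -1.41 and -2.23. On both arrays the last 3 probes were the brightest of those without an outer flank, and they were above background on both. Neighbours differed at the steps to 15 (0.41), 17 (0.38) and 18 missing bases (0.54), while the last steps, to 19 and 20, were -0.05 and -0.04 with adjusted p = 0.723 and 0.737 (limma). Of these 3 upward steps 2 were called without replicate 1 of GABPα alone, 1 without replicate 2, 1 with normexp and 0 in the authors' deposited table. The probes lacking 14 to 17 bases were not above background on array 2, which limits these steps. The step to 12 was -0.29 (limma adjusted p = 0.0331), between probes that were both below background.

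The probe lacking 20 bases was 1.14 above the probe lacking 10 bases with GABPα alone (SE 0.127, limma adjusted p = 1.03e-08), higher on both arrays, by 1.29 and 0.99. As the latter probe was below background, the bound is at least 1.73-fold, in the processed signal only. In the authors' deposited table the same rise was 0.50 and did not pass the test (limma adjusted p = 0.12), and with normexp it was 0.52 (adjusted p = 0.0016). Even so, the probe lacking 20 bases differed from the intact probe by -1.64 ± 0.63 (SD, n = 2; limma adjusted p = 5.16e-10).

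With untagged CREB1 in the reaction, the same steps were visible, and that from 9 to 10 missing bases was shallow. The steps were -0.48 from 8 to 9 and -0.32 from 9 to 10 (limma adjusted p = 0.00118 and 0.0198). The first did not pass as different from that with GABPα alone (0.25, limma adjusted p = 0.167). The intact probe had levels of 0.67 and 0.44. The probes lacking 1 to 8 bases lay between 0.71 and 1.03 on array 1 and between 0.46 and 0.78 on array 2. The probe lacking 9 bases had levels of 0.17 and 0.27, the probe lacking 10 bases -0.04 and -0.17, and the probe lacking 12 bases again -0.04 and -0.17. The probes without an outer flank thus sat below the intact probe on both arrays, but far above the same probes with GABPα alone.

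In this group 14 of the 20 members changed, 2 upward and 12 downward (limma), against 0.819% called higher and 96.2% called lower over all differences. The 2 that rose lacked 5 and 6 bases, by 0.32 and 0.31. Both calls were lost without either array of GABPα alone, which enters the shared spread, and without replicate 1 of this group, and that at 5 also without its replicate 2. The 12 that fell were again those lacking 9 to 20 bases, with effects of -0.33 at 9, -0.66 at 10 and, at the lowest, -0.77 at 14 (limma adjusted p = 0.0199, 9.81e-05 and 0.000281). Among the probes without an outer flank, those lacking 18 to 20 bases again stood nearest to the intact probe, with effects of -0.38, -0.43 and -0.37. The calls at 18, 19 and 20 were lost without either array of the group, that at 9 without replicate 1, and that at 17 without replicate 2. In the authors' deposited table, 0 of the 20 passed the limma test, and 0 had an unadjusted p under 0.05, although the probes lacking 10 to 20 bases read 58.6% to 79.2% of the intact probe on array 1 and 61.4% to 79.3% on array 2.

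The difference between the 2 groups' trimming effects was then tested directly on those 4 arrays. It was positive and passed the test in 11 of the 20 members, those lacking 10 to 20 bases (limma), against 9.34% called higher and 84.2% called lower over all differences, whose median was -0.93. It was 2.12 at 10 missing bases, 2.62 at 12, 2.00 at 15 and 1.16 at 18 (SE 0.177 each; limma adjusted p = 1.53e-31, 2.06e-47, 5.2e-28 and 2.67e-10). It was positive on both slides for all 11, from 0.70 to 2.13 on the first and from 1.58 to 3.12 on the second. Of the 20 full-length probes with the intact forward site at other places, 2 were called higher and 0 lower (limma). The largest difference there was 3.14, at the probe with the site at the outer end, which was below background with GABPα alone. For the probes lacking 10 to 14 bases, whose level with GABPα alone is only a bound, the difference was at least 1.68 to 1.80 in the processed signal. With normexp it was smaller, 1.13 at 10 and 1.26 at 12 missing bases.

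For the probes lacking 1 to 9 bases the difference lay between -0.18 and 0.17 and none passed. Its 95% intervals there ran from -0.52 to 0.51 at the widest, so a difference of the size seen at 10 missing bases lies outside them. At 9 missing bases, where both groups fell, the difference was 0.17, with an interval from -0.18 to 0.51. The SE was the same for every row of this fit, since it was set by the spread over all differences, and so the p-values do not reflect the larger spread at dim probes. In the authors' deposited table the differences were 1.14 at 10 and 1.28 at 12 missing bases, and 0 of the 20 passed in limma (2 at an unadjusted p under 0.05). With sequences dim in both groups left out of that table, a setting chosen after the values were seen, 11 passed again. The probes lacking 10 to 17 bases stayed in only because they were bright with CREB1, so this count is no separate support.

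Read as the effect of adding CREB1 at each probe, GABPα signal was higher with CREB1 at all 20 members, by 0.56 to 3.36. Of these, 10 passed the test over 10812 sequences (limma), where 6.73% were called higher and 3.58% lower with a median of -0.18. They were the probes lacking 4, 5 and 7 to 14 bases. Of the 20 full-length probes with the intact forward site at other places, 11 were called higher too (limma). The gains of all 20 ran from 0.48 to 3.88 with a median of 0.76, the largest with the site at the outer end. The gain was 0.77 ± 0.122 (SE) at 1 missing base and 0.90 ± 0.105 at 9, beside 0.74 ± 0.107 at the intact probe (limma adjusted p = 0.0584, 0.0335 and 0.0492). At 10 missing bases it was 2.86 ± 0.213 and at 12 it was 3.36 ± 0.329 (limma adjusted p = 0.0151 and 0.0257), which as bounds are at least 5.68-fold and at least 5.79-fold. These bounds hold for the processed signal at this scaling. The gains there were 2.01 and 2.5 with the percentile over all spots, 1.80 and 1.93 with normexp, and 1.82 and 1.97 in the authors' deposited table, where they did not pass (limma adjusted p = 0.543 for both). At 20 missing bases, above background on all 4 arrays, it was 2.00 ± 0.344, a 4.01-fold gain (limma adjusted p = 0.0671).

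The count of 10 is fragile. With the slide, which is also the replicate number, as a block, 4 passed, and with any 1 of the 4 arrays left out 0 passed in limma, although 16 to 20 had an unadjusted p under 0.05. The small gains also depend on how the arrays are scaled. The percentile taken over all spots lowered the gain at every member alike, so that all 8 gains at 1 to 8 missing bases turned negative, -0.29 to -0.08. The gain was then 0.05 at 9 missing bases and stayed at 1.05 to 2.5 at 10 to 20. The difference in trimming effects above does not depend on that scaling.

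With CREB1 alone no member was called lower than the intact probe. The intact probe had levels of 1.15 and 0.87, the probe lacking 9 bases 1.23 and 0.89, and the probe lacking 10 bases 1.35 and 0.99. The probes lacking 11 to 20 bases lay between 1.01 and 1.56 on array 1 and between 0.62 and 1.20 on array 2. These ranges enclose the intact probe on both arrays. The probes that were dim for GABPα were thus bright for CREB1. Within the stretch without an outer flank, the probe lacking 20 bases was lower than the probe lacking 10, with a difference of -0.36, and of -0.34 and -0.37 on the 2 arrays (limma adjusted p = 0.0133). That call was lost without replicate 2 of CREB1 alone (-0.34, adjusted p = 0.0668) and in the authors' deposited table (-0.61, adjusted p = 0.104).

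With CREB1 alone 2 of the 20 members changed, both upward (limma), against 3.19% called higher and 79.7% called lower over all differences. They lacked 12 and 13 bases and rose by 0.34 and 0.36 (limma adjusted p = 0.0455 and 0.0493). At those probes 47.8% and 25.0%, and 100% and 63.6%, of the spots on the 2 arrays were saturated, so their levels are lower bounds. Both calls were lost without replicate 1 of CREB1 alone and without either array of GABPα with CREB1, which enters the shared spread. The trimming effect at 10 missing bases was 0.16, with a 95% interval from -0.12 to 0.45, and over all 20 members no interval reached below -0.52. The difference in trimming effect between GABPα alone and CREB1 alone was negative and passed in 12 of 20 members, those lacking 9 to 20 bases (limma), against 68.4% called lower and 24.3% called higher over all differences. It was -0.55 at 9 missing bases, -2.94 at 10, -3.62 at 12 and -1.44 at 20 (limma adjusted p = 0.0075, 6.63e-13, 1.19e-13 and 1.55e-06). At 10 and 12 the GABPα level was below background on both arrays, so the size of the difference there is not measured. The call at 9 was lost without replicate 2 of GABPα alone (-0.41, adjusted p = 0.164). Neither the call at 9 (-0.38, limma adjusted p = 0.345) nor that at 20 (-0.73, limma adjusted p = 0.158) passed in the authors' deposited table.

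The CREB1 levels moved with the base that follows the CRE, a split chosen after the values were seen. In the probes lacking 11 to 20 bases, c followed the site in 2 probes, with levels of 1.51 to 1.53 on array 1, and t in 2, with 1.40 to 1.56. There a followed it in 2 probes, with 1.07 to 1.25, and g in 4, with 1.01 to 1.31. On array 2 the same groups read 1.19 to 1.20 (c), 1.06 to 1.18 (t), 0.70 to 0.92 (a) and 0.62 to 0.96 (g). The probes with c or t after the site thus read higher than those with a or g on both arrays, without overlap. Those lacking 12, 13 and 14 bases, 3 of the 4 with c or t, had many saturated spots (60.9% and 30.4% at 14). The remaining one, lacking 18 bases, had 16.7% and 26.1%. The levels of all 4 are thus lower bounds, and c and t cannot be ordered. The only step called with CREB1 alone was the one from 14 to 15 missing bases, where c gave way to a (-0.48, SE 0.122, limma adjusted p = 0.000956).

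The 20 full-length probes into which the site was slid along the scaffold gave a like split on array 1: 1.34 to 1.45 for c (5 probes), 1.11 to 1.48 for t (4), 0.78 to 1.07 for a (5) and 0.66 to 1.26 for g (6). There the ranges of t and g overlapped. On array 2 they read 0.94 to 1.16 for c, 0.84 to 1.09 for t, 0.52 to 0.84 for a and 0.42 to 0.94 for g, so that c met g, t met a, and t and g overlapped again. These are descriptions of few probes that differ in other flank bases as well. The probes with 12, 13 and 14 outer bases, all with c or t, had 50%, 41.7% and 37.5% of spots saturated on array 2.

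Full-length probes of 2 further kinds were set beside the trimmed probes. The first kind holds exactly the same bases after the site as the probes lacking 11 to 20 bases, and differs from them only by the 11 to 20 outer bases that the trimmed probes lack. Its probes are thus also longer, and their site does not form the outer end. The parts of outer bases, length and end in the gap were not tested. With GABPα alone all 10 trimmed probes were lower than these partners, against 87.9% lower over all differences (limma). The probe lacking 12 bases had levels of -3.05 and -3.87 and its partner -0.38 and -0.17, a difference of -3.19 (SE 0.163, limma adjusted p = 2.69e-15). As a bound that is at least 5.14-fold, in the processed signal only. In the authors' deposited table the gap was smaller. There the trimmed probe read 35.3% and 20.1% of the intact probe, and its partner 90.8% and 97.4%. The gap was -1.15 at 18 missing bases, -0.82 at 19 and -1.07 at 20, on array 1 -0.69, -0.34 and -0.64. The partners moved too, with levels of -0.07 and -0.09 with 11 outer bases and of -0.77 and -0.73 with 20.

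With CREB1 added, 5 of the 10 differed from those partners (limma), against 96.2% called lower and 0.819% called higher over all differences. The probes lacking 11 to 14 bases were lower, with differences of -0.76, -0.66, -0.44 and -0.46, and the probe lacking 20 bases was higher, by 0.46 (limma adjusted p = 0.00708). The count of 5 was 2 without replicate 1 of GABPα with CREB1 and 3 without replicate 2. From 15 to 19 missing bases the differences lay between -0.17 and 0.31, with 95% intervals from -0.51 to 0.64 at the widest. The change in this gap when CREB1 was added was positive and passed in all 10 pairs, by 1.13 to 2.53 (limma), against 9.34% called higher over all differences. In the authors' deposited table, 0 of the 10 passed in limma, 4 at an unadjusted p under 0.05, and with sequences dim in both groups left out 10 did. That filter kept the trimmed probes lacking 11 to 17 bases only through the reaction with CREB1, so those 10 calls are no separate support. With CREB1 alone 1 of 10 pairs differed, against 3.19% called higher and 79.7% called lower over all differences (limma). It was the pair at 19 missing bases (0.37, limma adjusted p = 0.0377), a call lost without replicate 1 of CREB1 alone and without either array of GABPα with CREB1. The differences of all 10 pairs were positive, from 0.07 to 0.37. At 12 to 14 missing bases both probes of a pair had saturated spots, so the sizes there (0.08, 0.09 and 0.07) are not measured.

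The second kind has the same number of bases before the site but is 60 bases long, with other flank letters. For the 11 probes without an outer flank the partner is the full-length probe with the site at the outer end, which had the lowest levels of the 21 full-length forward placements, -4.41 and -4.72 with GABPα alone and -0.64 and -0.74 with CREB1. With GABPα alone 15 of 20 trimmed probes were higher than their partner, against 4.41% called higher over all differences (limma). The partner at the outer end was below background on both arrays, so the bound is at least 1.88-fold, 1.82-fold and 1.76-fold at 18, 19 and 20 missing bases. For the probes lacking 10 to 14 bases both sides were below background on both arrays, and for those lacking 15 to 17 on array 2, so no fold is given, though the processed levels differed by 1.60 at 10 missing bases and by 1.39 at 11. In the authors' deposited table the same order held, with 22.7% and 11.1% of the intact probe at the full-length outer site and 39.4% and 26.1% at the probe lacking 10 bases.

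With 1 outer base the trimmed probe had a before the site and the full-length probe g. Their levels with GABPα alone were -0.57 and -0.79 against -1.14 and -1.39, a difference of 0.59 (SE 0.123, limma adjusted p = 1e-04). With CREB1 the same pair differed by 0.05 (limma adjusted p = 0.682), and the change in the gap was -0.53 (SE 0.177, limma adjusted p = 0.00271). In that group 12 of 20 trimmed probes were higher than their partner and 1 was lower (limma), against 0.819% higher and 96.2% lower over all differences. The lower one, at 2 missing bases, was set against the bright full-length probe with 8 outer bases, whose levels were 1.19 and 1.04 (-0.51, limma adjusted p = 0.000442). With CREB1 alone 5 of 20 were higher, at 4, 12, 13, 14 and 18 missing bases, by 0.29 to 0.43, against 3.19% over all differences (limma).

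Probes trimmed in the same way but carrying the 16-mer in reverse, with the CRE at the outer end and the ETS motif toward the glass, gave the opposite picture. At 10 missing bases CREB1 alone had levels of 0.08 and -0.01 on the reverse probe, against 1.35 and 0.99 on the forward one. GABPα alone had 0.63 and 0.74 on the reverse probe, against -2.71 and -3.21. Whichever motif lay at the outer end thus gave the lower signal for its own factor, on both arrays of each.

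Over all 20 lengths, the forward probe was lower than the reverse one in 14 pairs and higher in none with GABPα alone, and lower in 15 pairs with CREB1 added (limma; 87.9% and 96.2% called lower over all differences). With CREB1 alone the forward probe was higher in 11 pairs, those lacking 10 to 20 bases, by 0.80 to 1.41, and lower in 3, those lacking 1 to 3 bases, with differences of -0.40 to -0.33 (limma; 3.19% higher and 79.7% lower over all differences). With GABPα alone the reverse probe lacking 13 bases reached 1.46 and 1.48, beside -0.37 and -0.19 for its intact full-length form, while the forward probe lacking 13 bases was below background on both arrays.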

How the data were processed

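The 6 scanner files hold linear spot intensity in the red (Cy5) channel and were written by Agilent Feature Extraction 12.0.1.1, per the file headers. The processed intensity in the deposited files had a fitted background subtracted and was detrended by the scanner software, per the file headers, with a surrogate value where the rest was not significant. Up to 22.7% of a member's spots carried one with GABPα alone. The deposited value table also holds intensity: for each of 6891 probe names, the median over spots of median signal minus local background, which was met within 0.01 from the scanner files. It is on a linear scale, neither centred nor turned.

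Control spots and outlier spots (2.26% to 4.55% per array) were left out. Processed intensity was taken as log2, scaled to each array's 75th percentile over the 1143 sequences that were above background on every array, and averaged over a sequence's spots (18 to 24 for a member). A sequence was above background where over 0.5 of its spots passed the scanner software's test at 13 standard deviations, so one below it may still hold signal. Members' SDs over spots were 0.06 to 0.87. The number of arrays limits the precision.

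Tests used limma 3.58.1 (lmFit, eBayes) in R 4.3.3 with the package data.table (version 1.17.8), Benjamini-Hochberg adjustment and a threshold of 0.05: a mean per group over 6 arrays for the trimming effects, and the 4 arrays with tagged GABPα for the effect of CREB1. The scripts were tested on simulated data. Alternatives were other scalings, normexp (offset 50), medians over spots, outlier spots kept, dim sequences left out, an intensity trend, the replicate block, the deposited table and each array left out. Every trimmed forward probe is named, by the number of bases it lacks, and other probes only as partners. The members, lists and tests were chosen with earlier results of these data known, and the pairing by inner bases, GABPα against CREB1 and the last against the first probe without an outer flank were added after the values were seen.

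The replicate number coincides with the slide for the 4 arrays with tagged GABPα, while the labels do not say that it marks a shared preparation. Deviations of same-numbered arrays correlated at r = -0.24 over 6889 custom sequences, so the numbers were not taken to pair the arrays. Exact permutation tests were not run on 2 arrays a group.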

Additional observations from a re-analysis of the deposited data

Results flagged for a closer look

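The effect of trimming on GABPα differed between the reactions with and without CREB1 in 11 members, by limma on the 4 arrays with tagged GABPα. With CREB1 minus without, the difference was 2.12, 2.26, 2.62, 2.33 and 2.36 at 10, 11, 12, 13 and 14 missing bases. It was 2.00, 1.78, 1.58, 1.16, 1.16 and 1.27 at 15, 16, 17, 18, 19 and 20. Adjusted p ran from 2.06e-47 to 2.67e-10. The first 5 probes were below background with GABPα alone, and the level on replicate 2 of that group was the lower of the pair at all 11. The second slide gave the larger difference each time (1.58 to 3.12, against 0.70 to 2.13 on the first). The part of the slide in it was not tested.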

How the results depend on the processing

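Counts are limma calls among 20 members, or 10 pairs by inner bases. The difference in trimming effect with and without CREB1 was called at 11 members under the alternatives run, except 12 with a crossed block and 0 in the deposited table (11 there with dim sequences left out). The same difference by inner bases was called in 10 pairs, again except 0 in the deposited table. For these counts and for CREB1's effect, leaving out dim sequences kept the probes lacking 10 to 17 bases only through the reaction with CREB1. Trimming with GABPα alone stayed within 1.5 times its 15 calls under all alternatives. The count of CREB1's effect was 10. It was 20 with custom sequences alone, 20 with dim sequences left out and 20 with an intensity trend, 4 with the replicate block, 1 with a crossed block (chosen after seeing the data, as was the next), 19 in the deposited table without dim sequences and 0 in that table. With the percentile over all spots, which lowered it at all members alike, the effect was negative at 1 to 8 missing bases, where 4 had been called (-0.12, -0.11, -0.09 and -0.20 at 4, 5, 7 and 8). The replicate block moved no other count by over 1.5 times, though it ended the rises at 3 and 5 missing bases with GABPα alone and at 6 with CREB1 added, as well as the gain of 0.29 from 10 to 20 missing bases with CREB1 added.

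In the deposited table, with and without dim sequences, trimming called 0 with CREB1 added and 0 with CREB1 alone. There, against probes with the same outer bases, 4 and (dim left out) 5 were called with CREB1 added and 0 with CREB1 alone. Against the same inner bases 0 were called in both groups, 6 forward probes differed from reverse ones with CREB1 alone, and the steps called were 1, 0 and 0 with GABPα alone, with CREB1 added and with CREB1 alone. No cause of these changes was tested.

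With normexp, trimming called 1 with CREB1 alone, and steps called 3, 1 and 2 in the 3 groups. For CREB1 alone, steps called 4 with medians over spots, 2 without dim sequences, 4 with a trend and 5 with the crossed block. There the pairs by inner bases called 4 with medians, 3 with a trend and 0 with the crossed block, and those by outer bases 12 with a trend. The crossed block called 0 for trimming with CREB1 alone and 2 by inner bases with CREB1 added.

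Leaving out 1 array gave 0 to 0 calls for CREB1's effect, 11 to 15 for trimming with GABPα alone, 8 to 14 with CREB1 added, 0 to 3 with CREB1 alone, 11 to 11 for the difference with and without CREB1, and 11 to 12 for GABPα against CREB1. In the order GABPα alone, with CREB1, CREB1 alone, it gave 12 to 15, 11 to 13 and 4 to 4 against the same outer bases, 9 to 10, 2 to 6 and 0 to 1 against the same inner bases (10 to 10 for their difference), 12 to 14, 14 to 15 and 12 to 14 against reverse probes, and 3 to 7, 1 to 2 and 1 to 2 for the steps. A group left with 1 array was assumed to vary like the others. Background limits the levels of GABPα alone at 10 to 17 missing bases, and saturation those of CREB1, most at 12 to 14 and also on the least trimmed reverse probes. Saturated spots made up 16.7% and 26.1% at 18 missing bases, and on array 2 20.8% at 10 and 16.7% at 17. The full-length probes with 12, 13 and 14 outer bases had 50%, 41.7% and 37.5% on array 2.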

Other observations

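The arrays of a group ordered the members alike: over the 20 probes r was 0.99 for GABPα alone, 0.964 with CREB1 and 0.959 for CREB1 alone. These are descriptions across probes that share most of their sequence, and r for GABPα rests on the gap between probes with and without an outer flank. With GABPα alone the SD between the 2 arrays was 0.01 to 0.09 for the probes lacking 1 to 8 bases, 0.15 at 9 and 0.36 to 0.80 at 10 to 20.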
